A study of Homo sapiens with 8 samples.

Results

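IL1B, LIF, IL6 and CCL2 are 4 genes of secreted inflammatory proteins that glioblastoma cells can make, and they were followed here as a group chosen by name. Each of the 4 was paired with exactly 1 probe set, the group of probes that reads 1 transcript,, among 11822 genes that could be named by a single symbol. The probe sets were 16901988 for IL1B, 16933761 for LIF, 17044182 for IL6 and 16833205 for CCL2. RNA came from the human glioblastoma line U-87MG, a long-established culture, and was read on 8 whole-transcript arrays. On 4 arrays the cells had received 50 µM indole-3-carboxaldehyde (I3CA), a tryptophan-derived aldehyde that the submitters count among known or supposed activators of AHR (the aryl hydrocarbon receptor), for 24 h. On the other 4 arrays they had received the solvent DMSO alone, which in all cultures was kept at or below 0.2% of the medium. Both groups come from this 1 line without further genetic change named in their labels, so they stand for that line and for tumour cells grown without immune or vascular cells. The labels call the 4 arrays of a group biological replicates and number them 1 to 4, without saying whether equal numbers share a culture day, so p-values measure the spread between these samples, which may be technical.

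Interleukin-1 beta, the product of IL1B, is made as a precursor, cut by caspase-1 and sensed by IL1R1 with its partner IL1RAP, and the MyD88 and NF-kB pathway behind that receptor is a classical inducer of IL6, LIF, CCL2, CXCL8 and PTGS2. Interleukin-6 and leukaemia inhibitory factor (LIF) use different specific receptors, IL6R and LIFR, but share the signalling chain IL6ST, which activates JAK kinases and STAT3, and both are known for sustaining stem-like cells in glioblastoma. CCL2 is a chemokine that draws monocytes through the receptor CCR2. AHR is a ligand-activated transcription factor that binds DNA with ARNT and is known both to raise and to restrain cytokine genes, depending on the cell type.

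Of the 4 genes, only IL1B and IL6 were matched by symbol in RefSeq's promoter table (GRCh38.p14), so these 2 promoters are shown. For each, the 250 bases before the annotated start are given 5′ to 3′ on the gene's own strand, with every match of the 6 motifs searched in capitals. IL1B lies on the minus strand at chr2:112836780-112837029, and IL6 on the plus strand at chr7:22726950-22727199.
IL1B: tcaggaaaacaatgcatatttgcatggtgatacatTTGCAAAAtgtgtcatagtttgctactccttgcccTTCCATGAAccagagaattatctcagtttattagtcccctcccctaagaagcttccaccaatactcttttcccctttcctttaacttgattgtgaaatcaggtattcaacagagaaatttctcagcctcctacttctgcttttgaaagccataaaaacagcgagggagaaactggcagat
IL6: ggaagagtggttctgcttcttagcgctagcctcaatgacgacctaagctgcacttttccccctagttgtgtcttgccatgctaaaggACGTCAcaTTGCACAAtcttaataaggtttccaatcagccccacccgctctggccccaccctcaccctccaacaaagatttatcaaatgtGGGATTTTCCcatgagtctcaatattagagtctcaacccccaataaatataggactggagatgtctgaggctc
The motifs were searched on both strands. They were the AHR core GCGTG, the 10-base NF-kB consensus, AP-1 as TGANTCA, a CRE half-site as TGACGT, C/EBP as TTGCNNAA and STAT as TTCNNNGAA. IL6 held an NF-kB match, GGGATTTTCC, at 73 to 64 bases before the start. It also held a C/EBP match, TTGCACAA, at 155 to 148 bases, and a CRE half-site on the opposite strand at 163 to 158 bases. IL1B held a C/EBP match, TTGCAAAA, at 215 to 208 bases and a STAT match, TTCCATGAA, at 180 to 172 bases before the start. No capitals of different motifs overlap. The AHR core and AP-1 letters were in neither window, and the NF-kB consensus was not in that of IL1B. Among 35116 promoter windows of this length, the NF-kB consensus was in 9.96%, C/EBP in 9.05%, the CRE half-site in 7.10%, STAT in 6.57%, AP-1 in 6.57% and the AHR core in 32.2%. These matches describe letters and not bound sites.

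Values below are log2 expression values as deposited, on which a difference of 1 is a doubling. The median of an array lay between 8.80 and 8.83. The arrays numbered 4 stood apart from the rest. For 1441 genes (12.2%) both arrays numbered 4 were the lowest of their group, and for 1381 genes (11.7%) both were the highest, against 5.28% to 8.01% of genes in either direction for numbers 1 to 3. Results for the cytokine genes are therefore also given without both of these arrays. As a check of the treatment, TIPARP, an ADP-ribosyltransferase gene induced by AHR, was 0.60 ± 0.13 (SE) higher with I3CA and CYP1B1, an AHR-induced cytochrome P450, 0.57 ± 0.15 higher. The groups did not overlap for either gene, which held for 1.92% of all genes, and neither passed the adjusted threshold in limma (adjusted p = 0.79 for TIPARP and adjusted p = 1.00 for CYP1B1). These are the 2 with the smallest p of 6 measured AHR response genes, of which NQO1, a quinone reductase gene, differed by -0.13 ± 0.09 and CYP1A2, another cytochrome P450 gene, by -0.19 ± 0.23. Signal over background is not recorded in the table, and a value alone does not show that a gene is expressed.

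All 4 cytokine genes had higher means with I3CA than with DMSO, by 0.23 to 0.64 on the log2 scale, and none of them passed the test. In the limma fit over all genes, 0 of the 4 had an adjusted p under 0.05 and 0 had an unadjusted p under 0.05. Over all genes, 0.00846% passed the adjusted threshold (1 gene of 11822) and 3.16% had an unadjusted p under 0.05. The median difference of the 4 genes was 0.37, beside -0.01 over all genes. Higher means with I3CA were found in 5513 of all 11822 genes. In none of the 4 were all I3CA arrays above all DMSO arrays.

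IL1B, the gene of the proinflammatory cytokine interleukin-1 beta, had log2 values of 11.63, 12.14, 11.91 and 10.63 in I3CA replicates 1 to 4. In DMSO replicates 1 to 4 it had 10.88, 11.59, 11.27 and 10.01. In both groups replicate 2 was the highest and replicate 4 the lowest, and the order of the numbers was the same, which held for 6.78% of all genes. I3CA averaged 11.58 ± 0.67 and DMSO 10.94 ± 0.68 (SD, n = 4 each). The difference of 0.64 ± 0.37 (SE) corresponds to 1.56-fold, with a 95% interval from 0.886-fold to 2.75-fold (limma adjusted p = 1.00). The exact two-sided permutation test over the 70 assignments of the arrays gave p = 0.23, where the smallest possible p is 0.029. Of all genes, 8 had a larger increase with I3CA, decreases not counted, and 24 had a larger SD within groups.

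Set against the DMSO array of its own number, IL1B was higher with I3CA by 0.75, 0.56, 0.64 and 0.62 in numbers 1 to 4. These differences averaged 0.64 ± 0.08 (SD over 4 numbers), or 1.47-fold to 1.68-fold. The spread within a group, 0.68 (pooled SD), was thus carried almost wholly by the numbers. Sign flips over the 4 numbers gave their smallest possible p of 0.125 in an exact test. Higher values with I3CA at all 4 numbers were seen in 6.06% of all genes.

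**Figure D1:**
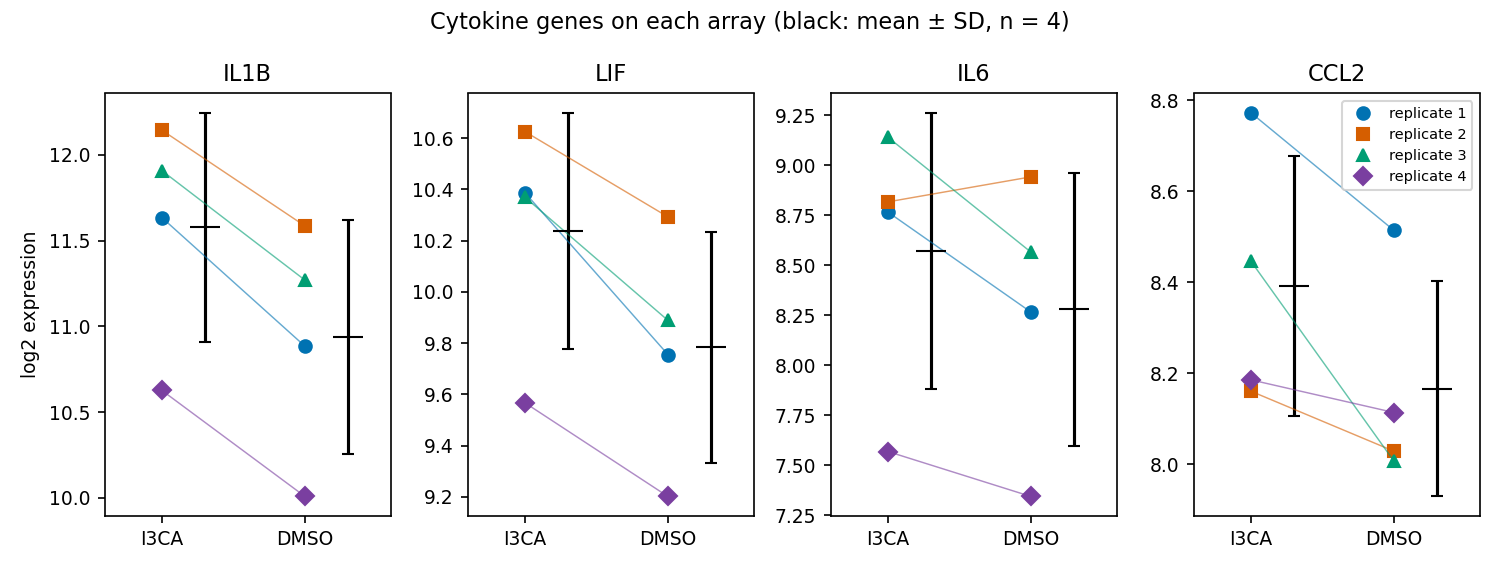
Log2 expression of IL1B, LIF, IL6 and CCL2 on each of the 8 arrays, with I3CA left of DMSO, lines joining arrays of equal replicate number and black bars for the mean ± SD (n = 4). In IL1B, LIF and CCL2 all 4 lines fall towards DMSO while the groups overlap. Replicate 4 is the lowest in both groups for IL1B, LIF and IL6 but not for CCL2.

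LIF, which encodes a member of the interleukin-6 family, had 10.39, 10.63, 10.37 and 9.57 in I3CA replicates 1 to 4. In DMSO replicates 1 to 4 it had 9.76, 10.29, 9.89 and 9.20. Replicate 2 was again the highest and replicate 4 the lowest in both groups, and 3 of the 4 I3CA arrays lay above the highest DMSO array. The means were 10.24 ± 0.46 with I3CA and 9.78 ± 0.45 with DMSO (SD, n = 4 each). The difference was 0.45 ± 0.25 (SE), or 1.37-fold with a 95% interval from 0.927-fold to 2.02-fold (limma adjusted p = 1.00, exact permutation p = 0.23). At equal numbers LIF was higher by 0.63, 0.33, 0.48 and 0.37, on average 0.45 ± 0.14 (SD over 4 numbers).

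IL6, the gene of interleukin-6, had 8.77, 8.82, 9.14 and 7.57 in I3CA replicates 1 to 4. In DMSO replicates 1 to 4 it had 8.27, 8.94, 8.56 and 7.34. Both arrays numbered 4 lay below the other 6, with a gap of 0.70 to the nearest of them, and the remaining values of the groups were interleaved. The means were 8.57 ± 0.69 with I3CA and 8.28 ± 0.68 with DMSO (SD, n = 4 each), and the difference of 0.29 ± 0.37 (SE) was smaller than the spread within either group. That is 1.23-fold, with a 95% interval from 0.690-fold to 2.18-fold (limma adjusted p = 1.00, exact permutation p = 0.51). At equal numbers the differences were 0.50, -0.13, 0.57 and 0.22, so IL6 was higher with I3CA in 3 of 4 numbers. Without DMSO replicate 4 alone, which keeps the low I3CA replicate 4, the unpaired difference was -0.02. Without both arrays numbered 4 it was 0.32.

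CCL2, the monocyte chemoattractant gene, had 8.77, 8.16, 8.45 and 8.19 in I3CA replicates 1 to 4. In DMSO replicates 1 to 4 it had 8.51, 8.03, 8.01 and 8.11. Here replicate 1 was the highest in both groups, and the arrays numbered 4 did not stand apart. The means were 8.39 ± 0.29 with I3CA and 8.17 ± 0.24 with DMSO (SD, n = 4 each), a difference of 0.23 ± 0.16 (SE). That is 1.17-fold, with a 95% interval from 0.921-fold to 1.49-fold (limma adjusted p = 1.00, exact permutation p = 0.23). At equal numbers CCL2 was higher by 0.26, 0.13, 0.44 and 0.07, and without I3CA replicate 1 the unpaired difference was 0.10.

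Without both arrays numbered 4, the differences were 0.65 ± 0.19 (SE) for IL1B, 0.48 ± 0.15 for LIF, 0.32 ± 0.18 for IL6 and 0.28 ± 0.19 for CCL2, with 3 arrays per group. For IL1B and LIF the standard errors were thus smaller than with all arrays, and both had an unadjusted p under 0.05 in limma, with an adjusted p of 1.00 for each. The share of all genes under an unadjusted 0.05 in this smaller fit was not counted, so it does not set these genes apart. Leaving out a single array moved the IL1B difference between 0.33 (without DMSO replicate 4) and 0.96 (without I3CA replicate 4), and that of LIF between 0.26 and 0.68 for the same arrays. Without DMSO replicate 1 the CCL2 difference was 0.34, and without I3CA replicate 4 that of IL6 was 0.63.

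**Figure D2:**
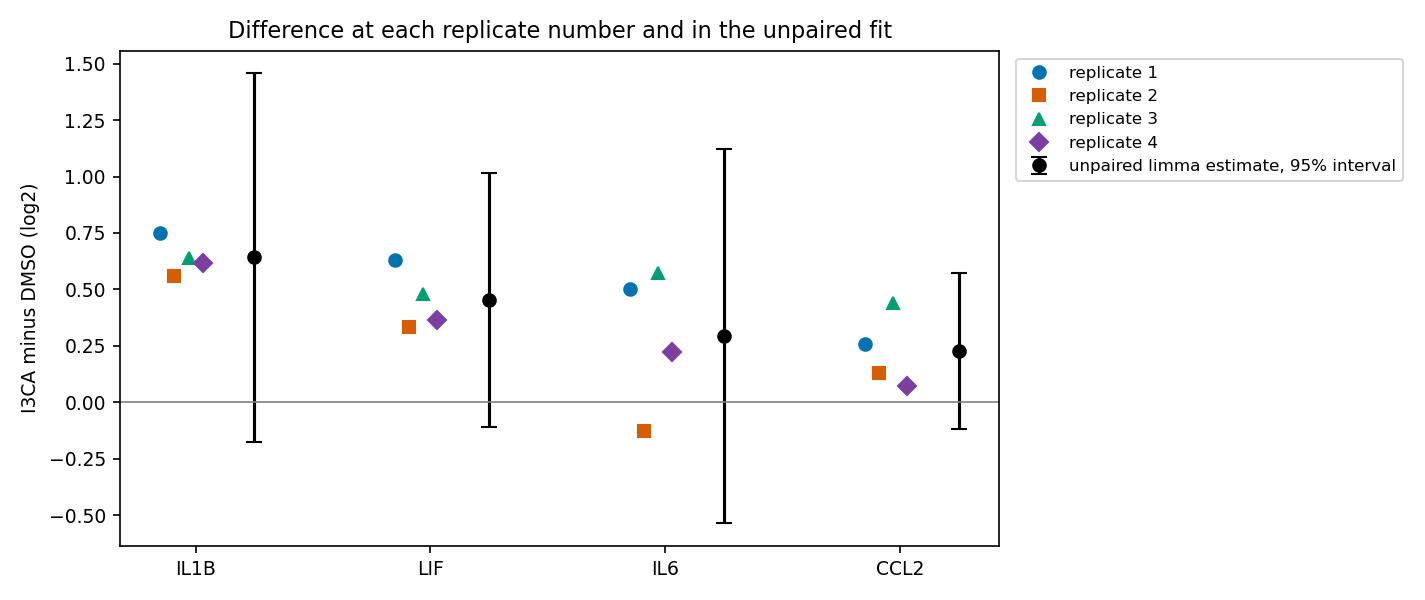
I3CA minus DMSO on the log2 scale for each cytokine gene, as coloured points for the arrays of equal replicate number and as a black point with the 95% interval of the unpaired limma fit over 8 arrays. All 4 intervals include 0. At equal numbers 15 of the 16 differences lie above 0, the exception being IL6 in replicate 2 at -0.13. These 16 come from the same 8 arrays, on which IL1B, LIF and IL6 vary together, so they are not independent. Higher values at all 4 numbers are seen in 6.06% of all genes.

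The 4 genes differed in how much they varied between arrays of 1 group. The pooled SD within groups was 0.69 for IL6, 0.68 for IL1B, 0.46 for LIF and 0.26 for CCL2, beside a median of 0.15 over all genes. Of the 11822 genes, 21 had a larger SD than IL6, 24 than IL1B, 167 than LIF and 1484 than CCL2. Splitting each gene's variance over the 8 arrays, replicate number held 76.6% for IL1B, 73.6% for LIF, 89.2% for IL6 and 72.5% for CCL2, beside a median of 49.5% over all genes. A larger share for replicate number was found in 16.4% of all genes for IL1B, 19.9% for LIF, 4.46% for IL6 and 21.1% for CCL2. The treatment group held 23.1% for IL1B, 24.7% for LIF, 5.76% for IL6 and 19.8% for CCL2, beside a median of 6.57%. What neither accounted for was 0.270% for IL1B, 1.65% for LIF, 5.04% for IL6 and 7.72% for CCL2, beside a median of 35.3%.

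**Figure D3:**
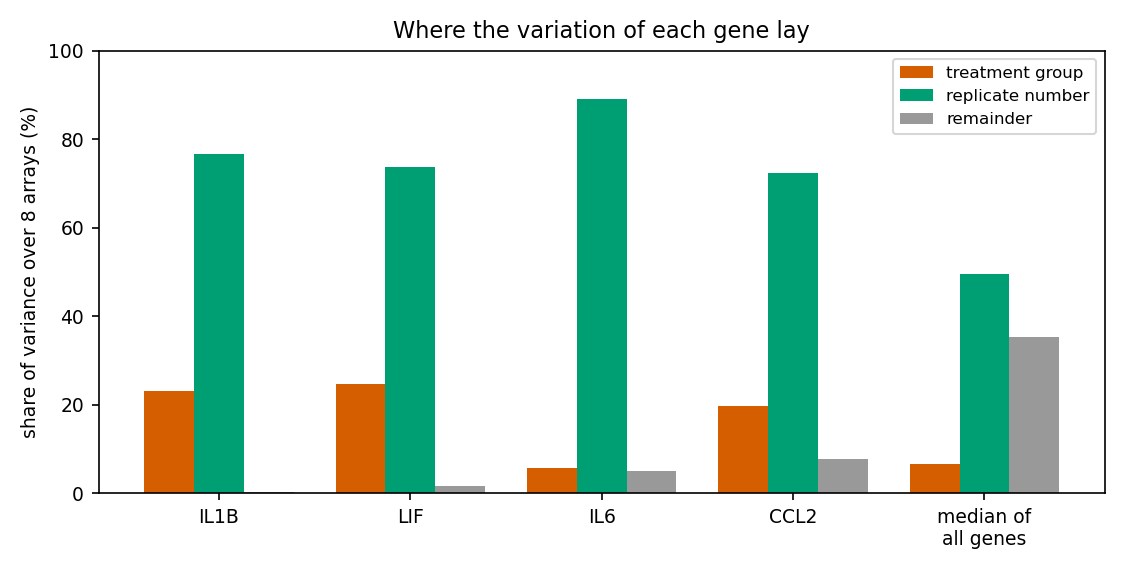
Share of each gene's variance over the 8 arrays, in percent, that lay between the treatment groups, between replicate numbers and in the remainder, for the 4 cytokine genes and as the median over all 11822 genes. Replicate number is the tallest bar in every set, and the remainder is near 0 for IL1B and LIF, against 35.3% in the median gene. Replicate number has more levels than treatment, so it tends to take the larger share even in a gene without any effect. The bars of a gene are therefore to be read against those of the median gene.

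IL1B, LIF and IL6 varied together over the 8 arrays, IL6 in part through the arrays numbered 4. No correlation of CCL2 with them was detected, and 8 arrays are too few to show that there is none. For IL1B and LIF, Pearson's r over the 8 arrays was 0.987 (exact permutation p = 7.4e-05, adjusted p = 0.00045 over the 6 pairs of genes compared) and Spearman's rho 0.976 (exact permutation p = 0.00040, adjusted p = 0.0024). Without the 2 arrays farthest from the IL1B median, which were both arrays numbered 4, r was 0.962 over 6 arrays (exact permutation p = 0.0042, adjusted p = 0.017). With the arrays numbered 4 left out for all 6 pairs, the adjusted permutation p of this r was 0.025. Spearman's rho over these 6 arrays was 0.943 (exact permutation p = 0.017, adjusted p = 0.10), which did not pass after adjustment. Taken as deviations from the group means, so that the treatment played no part, r was 0.983 (exact permutation within groups p = 0.0035, adjusted p = 0.016). The permutation treats the arrays as exchangeable, which arrays sharing a replicate number may not be.

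For the pairs with IL6, whose arrays numbered 4 form a separate low pair, the 6 other arrays come first. Over these, r was 0.823 for IL1B and IL6 (exact permutation p = 0.047, adjusted p = 0.13) and 0.773 for LIF and IL6 (exact permutation p = 0.067, adjusted p = 0.13), so neither pair passed after adjustment. Spearman's rho over the same 6 arrays was 0.714 (exact permutation p = 0.14, adjusted p = 0.41) and 0.543 (exact permutation p = 0.30, adjusted p = 0.59). Over all 8 arrays r was 0.938 for IL1B and IL6 (exact permutation p = 0.00047, adjusted p = 0.0014) and 0.919 for LIF and IL6 (exact permutation p = 0.00087, adjusted p = 0.0017). The relation of IL6 with either gene thus rests in part on the arrays numbered 4. As deviations from group means over all 8 arrays, r was 0.967 for IL1B and IL6 (exact permutation p = 0.0052, adjusted p = 0.016) and 0.950 for LIF and IL6 (exact permutation p = 0.010, adjusted p = 0.021). The rho of these deviations was 0.905 (exact permutation p = 0.017, adjusted p = 0.052) and 0.810 (exact permutation p = 0.033, adjusted p = 0.066), short of the threshold. These deviations include both arrays numbered 4.

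CCL2 had r = 0.209 with IL1B, 0.272 with LIF and 0.238 with IL6 (exact permutation p = 0.62, 0.51 and 0.58, adjusted p = 0.62 for each). Its rho with these genes was 0.190, 0.238 and 0.048 (exact permutation p = 0.66, 0.58 and 0.93, adjusted p = 0.80, 0.80 and 0.93). Without both arrays numbered 4, r was -0.09, 0.04 and -0.10. Over all genes ranked by their r with IL1B, LIF stood first of 11821, IL6 stood 25th and CCL2 stood 3986th. Ranked by r with LIF, IL1B stood first.

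**Figure D4:**
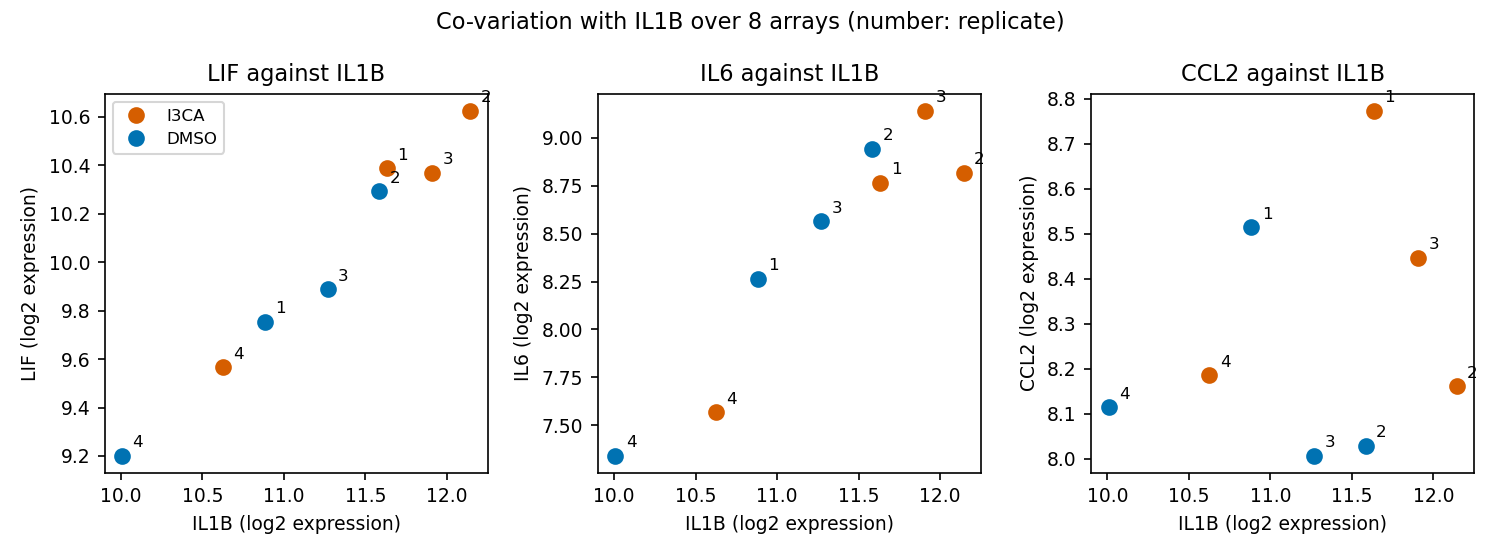
Log2 expression of LIF, IL6 and CCL2 (vertical axes) against IL1B (horizontal axis), 1 point per array, orange for I3CA and blue for DMSO, each marked with its replicate number. LIF lies along a line with IL1B in both groups (r = 0.987), IL6 does so with both arrays numbered 4 at the low end, and CCL2 shows no such line (r = 0.209).

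The other genes nearest to IL1B were MRPS9, a mitochondrial ribosomal protein gene (r = 0.983), and PTGS2, the inducible cyclooxygenase gene (r = 0.978), and the same 2 followed IL1B in the order for LIF (r = 0.977 and 0.975). These were picked as the highest of 11821 values over 8 arrays, so they are a description. PTGS2 had 8.49, 8.94, 8.73 and 7.81 in I3CA replicates 1 to 4, against 8.20, 8.72, 8.26 and 7.54 in DMSO replicates 1 to 4. Like IL1B it was highest in replicate 2 and lowest in replicate 4 of both groups, and its difference was 0.31 ± 0.27 (SE, limma adjusted p = 1.00). Nearest to IL6 were SVEP1 (r = 0.979), METAP1 (r = 0.979) and KIAA1430 (r = 0.978). Nearest to CCL2 were APCDD1L (r = 0.942), EML3 (r = 0.932) and CPSF4 (r = 0.927).

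Of the receptors for these cytokines, 5 of 7 were measured and 0 passed, with differences from -0.08 to 0.16. For interleukin-1 these were IL1RAP, the accessory chain (0.16 ± 0.16 SE), and IL1R1, the signalling receptor (-0.01 ± 0.10). For the interleukin-6 family they were IL6ST, the shared signalling chain (0.10 ± 0.10), LIFR (0.02 ± 0.09) and IL6R (-0.08 ± 0.14). Their median was 0.02, and 0 had an unadjusted p under 0.05.

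Among other genes of the interleukin-1 family and its processing, 8 of 15 were measured and 0 passed in limma after adjustment. At an unadjusted p under 0.05, 1 was higher and 1 lower, where over all genes 1.74% were higher and 1.42% lower. IL1RN, the natural antagonist of the interleukin-1 receptor, had 8.54, 9.14, 9.43 and 8.85 in I3CA replicates 1 to 4, against 7.92, 8.61, 8.86 and 8.30 in DMSO replicates 1 to 4. It was higher with I3CA at all 4 numbers, as were 6.06% of all genes, with overlapping groups and a difference of 0.57 ± 0.22 (SE, limma adjusted p = 1.00). GSDMD, which encodes the pore protein gasdermin D through which mature interleukin-1 beta can leave the cell, was lower at all 4 numbers, as were 6.67% of all genes, with a difference of -0.26 ± 0.10 (SE). CASP1, the gene of the protease that cuts the precursor, differed by 0.24 ± 0.15. Of the 4 measured ligands of the interleukin-6 family beside the members, CTF1 (cardiotrophin 1) differed by 0.38 ± 0.18, IL11 by 0.12 ± 0.18 and IL27 by -0.12 ± 0.07, and 0 of 4 had an unadjusted p under 0.05.

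Of 22 other chemokine genes 6 were measured, with a median difference of -0.05 and 0 at an unadjusted p under 0.05. CXCL8, the neutrophil chemoattractant interleukin-8 (annotated by its older symbol IL8), had 10.15, 10.24, 10.16 and 8.54 in I3CA replicates 1 to 4. In DMSO replicates 1 to 4 it had 9.61, 10.01, 9.79 and 8.32. Both arrays numbered 4 were again the lowest. CXCL8 was higher with I3CA at all 4 numbers, as were 6.06% of all genes, with a difference of 0.34 ± 0.43 (SE, limma adjusted p = 1.00). CXCL14 differed by -0.33 ± 0.19 and CCL5 by -0.14 ± 0.18, so the chemokines measured did not share a direction.

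Of 13 measured other inflammatory NF-kB target genes, 5 had higher and 8 lower means with I3CA, with a median of -0.09. Over all genes, 5513 had higher and 6309 lower means. At an unadjusted p under 0.05, 2 were lower and 0 higher, beside 1.42% and 1.74% of all genes, and 0 passed in limma after adjustment. Those lower were TNFAIP2 (-0.28 ± 0.09 SE) and CSF1, the macrophage colony-stimulating factor gene (-0.26 ± 0.10), while TRAF1, a signalling adaptor gene, differed by 0.21 ± 0.17. All 15 NF-kB subunit, kinase and inhibitor genes were measured, and their differences ran from -0.17 to 0.10 with a median of -0.05. NFKBIB, the inhibitor I-kappa-B beta gene, led these at -0.17 ± 0.11, followed by NFKBIE (-0.13 ± 0.14) and BCL3 (-0.10 ± 0.13). None of the 15 had an unadjusted p under 0.05 in limma.

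Of 12 measured signalling genes behind the interleukin-1 receptor, 10 had lower means with I3CA, as had 6309 of all 11822 genes. The median of the 12 was -0.06, with 0 of them at an unadjusted p under 0.05. PELI1, an E3 ligase gene, differed by -0.34 ± 0.16 (SE), TAB1 by -0.21 ± 0.11 and TRAF6 by -0.16 ± 0.10. Downstream of the interleukin-6 family, 11 JAK and STAT3 genes had a median of 0.01, and 1 was lower at an unadjusted p under 0.05, as were 1.42% of all genes. That was CISH, a feedback inhibitor gene (-0.32 ± 0.14), while SOCS3, the main feedback inhibitor of IL6ST signalling, differed by -0.06 ± 0.09 and SOCS2 by 0.24 ± 0.18.

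The 10 measured C/EBP and AP-1 factors had a median of 0.03, and 0 had an unadjusted p under 0.05. CEBPB, a factor known to bind the IL6 promoter, differed by 0.10 ± 0.08 (SE), FOSL2 by 0.14 ± 0.11 and CEBPD by -0.10 ± 0.10. The 9 regulators of AU-rich mRNA decay, which control how long cytokine mRNAs last, lay between -0.04 and 0.07, with ZFP36L1 at 0.07 ± 0.10, ELAVL1 at -0.04 ± 0.09 and KHSRP at -0.04 ± 0.09. Of 6 measured AHR response genes, 3 were higher at an unadjusted p under 0.05, as were 1.74% of all genes, and 0 passed after adjustment, with a median of 0.44. The third, AHRR, the AHR repressor gene, differed by 0.33 ± 0.11. The list had 4 higher and 2 lower means, beside 5513 higher and 6309 lower over all genes.

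**Figure D5:**
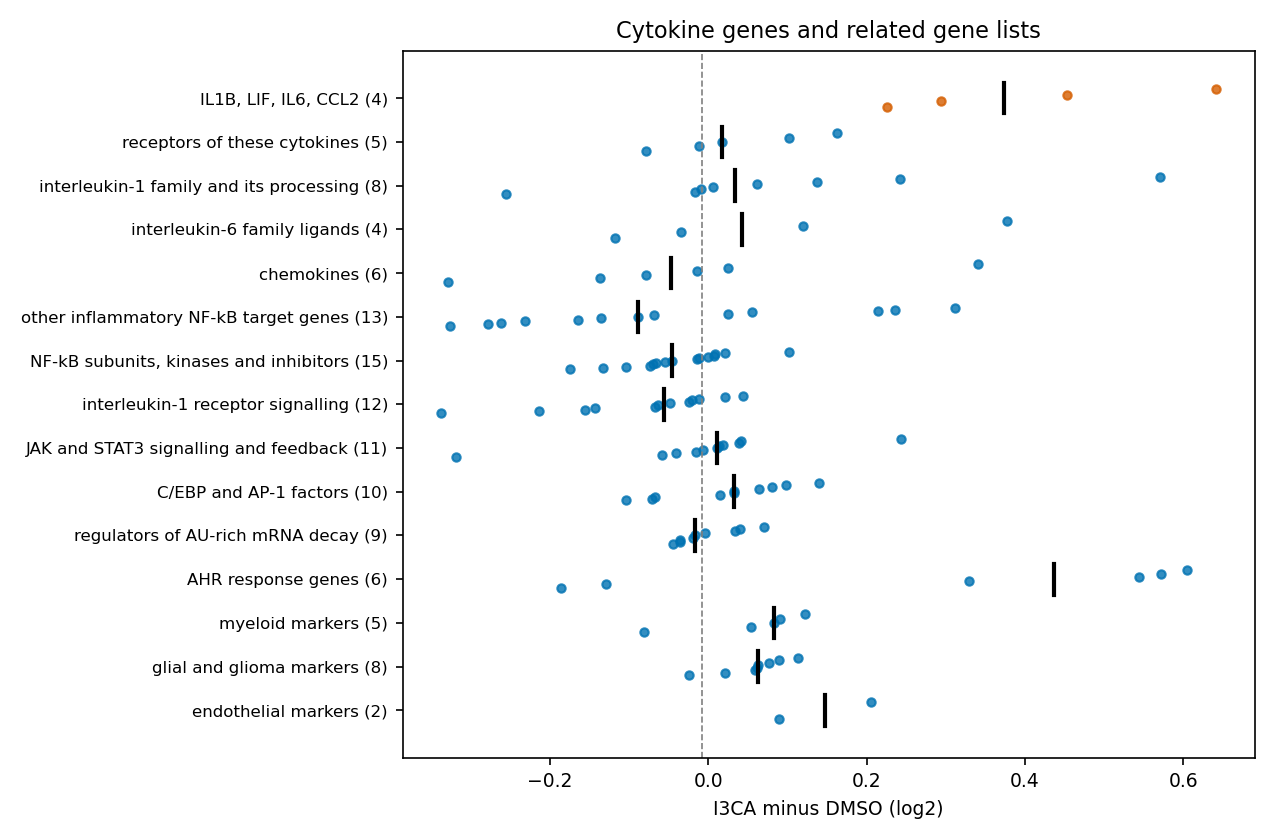
I3CA minus DMSO on the log2 scale for each measured gene (points) of the cytokine group, in orange, and of the related gene lists, in blue, with a black bar at each list's median and a dashed line at the median of all genes (-0.01). The number of measured genes stands in brackets, and the medians run from -0.09 for the other NF-kB targets to 0.44 for the AHR response genes, with 0.37 for the 4 cytokines.

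Markers of other cells that make these cytokines were followed as well. Of 12 myeloid markers 5 were measured (PTPRC, AIF1, CSF1R, ITGAM and TMEM119), with differences from -0.08 to 0.12, led by TMEM119 (0.12 ± 0.15 SE). Their mean per array lay between 8.41 and 8.80 with I3CA and between 8.51 and 8.70 with DMSO, and in both groups it was highest in replicate 4. The single genes did not share this. CSF1R was highest in replicate 4 of both groups (9.23 with I3CA, 9.17 with DMSO). ITGAM was lowest in I3CA replicate 4 (8.54) and AIF1 lowest in DMSO replicate 4 (7.93). A link of these markers with the cytokine values was not tested. Of 12 glial and glioma markers 8 were measured, GFAP and VIM among them, with a median of 0.06 (S100B, SOX2, OLIG2 and AQP4 were not analysed here), and the array means were 10.00 to 10.20 with I3CA and 9.90 to 10.15 with DMSO. Of 6 endothelial markers 2 were measured (VWF at 0.21 ± 0.11 and KDR at 0.09 ± 0.11), and 0 of 5 T cell markers. None of these marker genes had an unadjusted p under 0.05.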

How the data were processed

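Per the submitters' processing notes, the authors processed the arrays with oligo and RMA, which corrects background, quantile-normalizes and summarises probes; versions, genome build and any filter on rows are not given in the sources used here. The deposited values are log2 expression, 1 per probe set and array (13486 rows). GEO's platform annotation paired 11850 rows with 1 symbol, 657 with several and 979 were not listed; the brightest row stood for a gene, leaving 11822.

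I3CA was compared with DMSO in limma 3.58.1 (R 4.3.3; lmFit, eBayes, two-sided, no covariate, 8 arrays), with Benjamini-Hochberg adjustment over all genes and a threshold of 0.05. The fit was tested on simulated data. Exact permutation tests over arrays and correlations used Python 3.11.15 and numpy 2.4.6. Alternatives were a fixed or random block on replicate number, leaving out arrays, a trended robust prior, array weights, median centring and a brightness filter. The members and 15 lists (173 entries, 114 measured, 1 by an older symbol) were chosen with earlier results of these data known, so they give no independent support. Named genes were the members, all measured receptors, up to 3 genes of each list by smallest unadjusted p, and the 3 genes most correlated with each member; other genes named were chosen after their values were seen. No depth exists for arrays; their number limits the precision.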

Additional observations from a re-analysis of the deposited data

Results flagged for a closer look

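Over the genes named by rule and the list means, 124 groups of 4 arrays were examined for an array far from the rest. There were 7 such groups, and chance alone gives about 6.2. In the I3CA group CXCL8 (annotated as IL8) stood at 8.54 in replicate 4, with the others at 10.15 to 10.24, and the mean of the interleukin-1 family genes at 9.11 in replicate 3, with the others at 8.90 to 8.91. In the DMSO group IL11 was at 8.21 in replicate 4 (others 8.81 to 8.90), KDR at 8.48 in replicate 4 (others 8.06 to 8.12) and the mean of the myeloid markers at 8.70 in replicate 4 (others 8.51 to 8.52). IL1R1 was at 9.14 in DMSO replicate 1 (others 9.38 to 9.40) and CXCL14 at 8.47 in DMSO replicate 3 (others 7.69 to 7.70). None of the 4 cytokine genes themselves was apart by this measure.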

How the results depend on the processing

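Deviations from the group means of same-numbered arrays correlated over all genes at 0.04 (number 1), 0.07 (number 2), 0.05 (number 3) and 0.32 (number 4). Such values over all genes do not decide whether equal numbers are pairs for the cytokine genes, and the labels do not say. With the replicate block the differences kept their size and their standard errors became 0.07 for IL1B, 0.08 for LIF, 0.13 for IL6 and 0.09 for CCL2 (limma adjusted p = 0.34, 0.55, 0.99 and 0.99). No call at the adjusted threshold changed, and the count of genes past it stayed at 1. The unadjusted limma p of the replicate block was 5.8e-05 for IL1B, 0.00092 for LIF, 0.036 for CCL2 and 0.053 for IL6. IL1B, LIF and CCL2 miss an unadjusted 0.05 without the block. The share of all genes under 0.05 with the block was not counted, so these p-values do not set the cytokine genes apart. The count of genes past the adjusted threshold was 1 in every alternative run. The differences of IL1B, LIF and CCL2 kept their direction and stayed short of the adjusted threshold in every alternative run; IL6 reversed to -0.018 without DMSO replicate 4. Leaving out 1 array gave 0.33 to 0.96 for IL1B, 0.26 to 0.68 for LIF, -0.018 to 0.63 for IL6 and 0.10 to 0.34 for CCL2. Without both arrays numbered 4, the correlation fell short of the adjusted threshold at 0.823 for IL1B and IL6 and at 0.773 for LIF and IL6. The value of 0.823 also arose without the 2 arrays farthest from the IL1B median, which are the same arrays. Correlations of CCL2 turned to -0.092 with IL1B and -0.099 with IL6 in those settings, and to -0.0065 with IL1B as deviations from the group means. Leaving out 1 array, r ranged from 0.977 to 0.993 for IL1B and LIF, 0.885 to 0.974 for IL1B and IL6, 0.854 to 0.954 for LIF and IL6, and 0.05 to 0.43 for the 3 pairs with CCL2. IL6 and CCL2 have no value under the brightness filter, which left both out. The causes were not tested.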

Other observations

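CCL5, a chemokine gene that attracts T cells and monocytes, and CSF1, which supports macrophages, ran opposite to IL1B over the replicate numbers; both were singled out after their values were seen. CCL5 had 8.48, 7.91, 8.03 and 8.35 in I3CA replicates 1 to 4, against 8.55, 8.14, 7.95 and 8.66 in DMSO replicates 1 to 4. Replicates 1 and 4, where IL1B was lower, had the higher CCL5 values in both groups. CSF1 had 9.88, 9.62, 9.69 and 9.85 in I3CA replicates 1 to 4, against 10.06, 9.97, 9.83 and 10.22 in DMSO replicates 1 to 4, with the same split of the numbers.

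IL11, an interleukin-6 family ligand, had 9.05, 8.92, 8.89 and 8.39 in I3CA replicates 1 to 4, against 8.90, 8.85, 8.81 and 8.21 in DMSO replicates 1 to 4, so it shared the low arrays numbered 4 with IL1B, LIF, IL6 and CXCL8. Replicate number held 94.6% of its variance and 93.4% of that of CXCL8.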
